A study of Caenorhabditis elegans and Caenorhabditis briggsae and Caenorhabditis remanei with 48 samples.

Results

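The genes described here are the C. elegans components of the proteasome that the study listed, under the Gene Ontology term for the proteasome complex, among coding sequences with higher levels of ribosome-protected fragments (RPFs) in developing animals than in L1 diapause. The list holds 31 protein identifiers, out of 21092 coding sequences in the RPF data and 23445 in the mRNA-seq data, and no 2 of them had identical values. RPF levels in these libraries chose the members. Their RPF values are therefore given as a description and with no test.

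The series holds 48 libraries of 4 Caenorhabditis species, of which the 12 from C. elegans strain N2 are used here. All of them came from populations of whole first-stage larvae, hatched without food in liquid medium and starved for 24 h. Developing animals were then fed E. coli HB101 for 3 h, and diapause animals were frozen without food. Each state has 3 mRNA-seq libraries of poly(A) RNA and 3 RPF libraries. The labels number 3 replicates, each with both states and both assays. Per the study, the starved and fed animals of a replicate came from a single batch of worms. It also describes the mRNA and RPF data as coming from common samples. In whole animals, more cells with a transcript and more of it per cell cannot be told apart.

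The proteasome is the main machine that degrades proteins tagged with ubiquitin in the cytoplasm and nucleus. Its core particle is a barrel of stacked rings of α and β subunits, with the proteolytic sites inside. A regulatory particle caps the barrel: its ring of AAA ATPases unfolds substrates and threads them into the core, its receptors bind ubiquitinated proteins, and its lid, which includes several subunits with a PINT (PCI) domain, holds the enzyme that removes the ubiquitin. Assembly of the complex requires these subunits in fixed proportions. By the annotation terms the study attached to the identifiers, 14 of the 31 members belong to the core particle, 6 are AAA ATPases, 3 carry a PINT domain and 8 have none of these terms (called other members below). The identifiers were not paired with gene symbols in the sources used here, and members are named by identifier, with the class as their role.

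The values are read numbers divided by a size factor for each library (normalised reads). The authors deposited their means per state, and the 3 library values behind each mean were recovered from it. Recovered reads summed to between 3046154 and 16856197 per library over coding sequences with a mean of up to 5000. Each member had 116 or more reads in every library, and the members' reads summed to between 12166 and 48152 per library. The spread between the 3 libraries of a state was small: the members' median coefficient of variation was 5.32% in developing and 6.73% in diapause mRNA, and 7.70% in developing and 6.36% in diapause RPF data. The recovered libraries carry no replicate number.

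Proteasome mRNA abundance was higher in developing animals for nearly the whole list. Of the 31 members, 30 rose in the mRNA-seq data by limma's moderated test, fitted over 20917 coding sequences with a false discovery rate of 0.1, and none fell. Among all coding sequences tested, 25.0% rose and 26.0% fell. Of the 11615 tested sequences with a mean of at least 50 in both assays, 4088 rose and 3509 fell. The members' median change was 0.89 on the log2 scale (1.85-fold), against a median of 0.04 over 12115 well-expressed coding sequences (a mean of at least 50 in both assays). Values of the developing and diapause mRNA libraries did not overlap for the same 30 members, with the developing values higher in each, as they were for 26.4% of all coding sequences. RPF levels, which chose the list, were higher in developing animals for 31 of 31 members and overlapped for none, against 27.5% of all coding sequences with developing values wholly above diapause values. Well-expressed coding sequences with an RPF change of at least that of the lowest member (log2 0.34) mostly rose in mRNA abundance as well. Of the 4179 such sequences that were tested, 79.5% rose, whatever the size of the mRNA rise. The share of members that rose is to be read against that figure too.

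**Figure D1:**
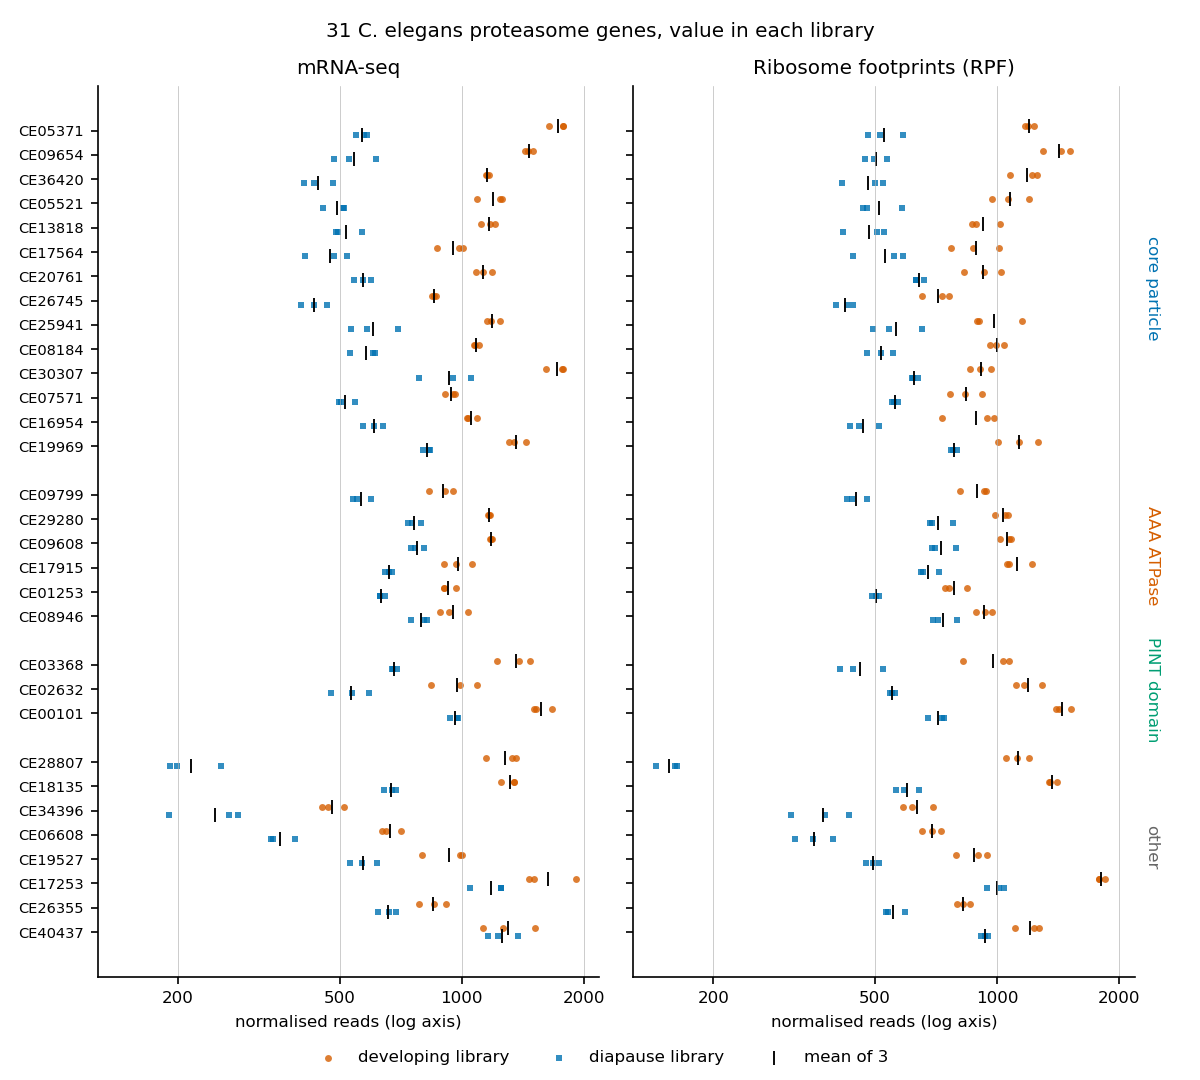
Normalised reads (log axis) of each of the 31 proteasome genes in the 3 developing (circles) and 3 diapause (squares) libraries, for mRNA-seq on the left and RPF on the right, with the mean of each state as a vertical tick. Genes are grouped by class and ordered by mRNA change. CE40437, at the bottom, is the 1 gene whose mRNA libraries overlap, and CE28807 has the widest gap between states in both assays.

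With the authors' size factors, the amount of change was moderate and similar in both assays. The geometric mean over the 31 members was 1128, 1076 and 1106 normalised reads in the developing mRNA libraries, against 580, 582 and 612 in the diapause mRNA libraries. For RPFs it was 944, 1019 and 1054 in developing libraries, against 546, 560 and 516 in diapause libraries. The developing libraries stood above all diapause libraries in each assay, with a spread within a state of 17.9 to 55.9 normalised reads (SD, n = 3). Members summed to 0.239% of all mRNA signal in developing animals and 0.145% in diapause animals. The corresponding shares of RPF signal were 0.339% in developing and 0.253% in diapause animals. By the state means, 7 members were over 2-fold higher in developing animals in mRNA abundance and 9 in RPF level, where 14.3% and 19.6% of well-expressed sequences were.

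These changes are relative to the size factors the authors used. When each state is scaled to the sum of its column instead, the median mRNA change of well-expressed sequences moves to -0.10 and their median RPF change to -0.43, against 0.04 and 0.01 with the authors' size factors. The members' own median change moves to 0.75 for mRNA and 0.39 for RPFs, against 0.89 and 0.83 with the size factors. Relative to the medians of well-expressed sequences, the members' median was 0.85 higher for mRNA and 0.82 higher for RPFs on the log2 scale. A scaling adds 1 constant to all changes of an assay, so it cannot alter these differences. With the column-sum scaling, 30 of 31 members still had the higher mRNA mean in developing animals, CE40437 being the exception, and 29 rose by the test. With that scaling, 4290 coding sequences rose and 6839 fell, against 5230 and 5430 with the size factors. CE08946 and CE40437 had a lower RPF level in developing animals under the column-sum scaling, and the other 29 members a higher one.

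The 14 core particle subunits, which build the proteolytic barrel, rose the most as a class in mRNA abundance. All 14 rose, by a median of 0.98 on the log2 scale (1.98-fold). Their changes ran between 0.73 and 1.61, and 6 were over 2-fold. Their RPF levels were higher in developing animals by a median of 0.86 (1.82-fold), with a range of 0.53 to 1.50.

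CE05371 had the largest mRNA change of the core particle. Its mRNA level was 1643, 1774 and 1771 normalised reads in the developing libraries, against 547, 585 and 572 in the diapause libraries. The states were far apart, with a 3.04-fold difference (log2 1.61 ± 0.05, SE; limma adjusted p = 4.33e-07). Its RPF level was 1174, 1232 and 1193 in developing libraries, against 586, 515 and 480 in diapause libraries. The RPF difference was 2.28-fold, smaller than that of its mRNA.

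CE09654, also a core particle subunit, had the largest RPF change of its class. Its RPF level was 1299, 1438 and 1514 normalised reads in developing libraries, against 474, 535 and 498 in diapause libraries, a 2.82-fold difference of means. Its mRNA level was 1501, 1453 and 1433 in developing libraries, against 484, 526 and 614 in diapause libraries. Here mRNA and RPF levels differed between states by nearly the same factor, with a 2.70-fold rise in mRNA (log2 1.43 ± 0.10, SE; limma adjusted p = 2.51e-06). CE36420, CE05521, CE13818 and CE17564 were the other core subunits above 2-fold in mRNA abundance, with 2.62-, 2.42-, 2.25- and 2.02-fold rises.

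At the low end of the core particle stood CE19969 for mRNA and CE20761 for RPFs. CE19969 mRNA measured 1437, 1305 and 1344 normalised reads in developing libraries, against 804, 833 and 828 in diapause libraries. Even this smallest rise of the class, 1.66-fold (log2 0.73 ± 0.045, SE; limma adjusted p = 0.000126), left a gap between the states much wider than the spread within them. CE20761 RPFs measured 829, 927 and 1020 in developing libraries, against 661, 632 and 631 in diapause libraries. CE20761 mRNA measured 1184, 1125 and 1083 in developing libraries, against 541, 572 and 598 in diapause libraries, so its mRNA rise of 1.98-fold was accompanied by a 1.44-fold higher RPF level.

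The 6 identifiers of AAA ATPases, the kind of subunit that forms the unfolding ring at the base of the regulatory particle, rose less. All 6 rose in mRNA abundance, by a median of 0.59 on the log2 scale (1.50-fold), and their largest change (0.67) was below the smallest of the core particle (0.73). None was 2-fold higher. Their RPF changes had the same median, 0.59, and ran between 0.34 and 0.99. CE09608 and CE29280 are nearly the same measurement: their reads differed by 0.959% to 2.95% in each of the 12 libraries, and a read with a single place in the genome could be counted for more than 1 coding sequence. Whether they are isoforms of 1 gene is not given in the sources used here, and they count as 1 independent value at most.

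CE09799 was at the top of the ATPases in both assays. Its mRNA level was 953, 829 and 908 normalised reads in developing libraries, against 540, 551 and 598 in diapause libraries (1.59-fold; limma adjusted p = 0.00036). Its RPF level was 809, 930 and 938 in developing libraries, against 426, 478 and 440 in diapause libraries (1.99-fold). Both assays separated the states without overlap.

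CE08946, also an ATPase, was the weakest of the members that rose, and it had the smallest RPF change of the whole list. Its mRNA level was 1038, 884 and 930 normalised reads in developing libraries, against 820, 750 and 805 in diapause libraries. The lowest developing library exceeded the highest diapause library by less than the range within either state. The rise was 1.20-fold (log2 0.26 ± 0.08, SE; limma adjusted p = 0.0655), and the call was lost in 5 of 10 alternative settings, among them the column-sum scaling and the removal of any 1 of 4 libraries. The limma adjusted p of CE08946 ran between 0.0649 and 0.367 over those settings. Its RPF level was 887, 935 and 970 in developing libraries, against 695, 798 and 714 in diapause libraries (1.27-fold).

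The 3 members with a PINT domain, a fold found in scaffold subunits of the proteasome lid, all rose in mRNA abundance, by 0.71, 0.86 and 1.00 on the log2 scale for CE00101, CE02632 and CE03368. Their RPF changes lay close together, at 1.01, 1.11 and 1.09. CE00101 mRNA measured 1672, 1508 and 1525 normalised reads in developing libraries, against 978, 973 and 934 in diapause libraries (1.63-fold; limma adjusted p = 0.000187). CE00101 RPFs measured 1523, 1422 and 1396 in developing libraries, against 731, 742 and 677 in diapause libraries. The lowest developing RPF library was well above the highest diapause one, with a 2.02-fold difference of means. CE02632 and CE03368 were 2.15- and 2.13-fold higher in RPF level.

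The 8 other members held both extremes of the list in mRNA change. CE28807 changed far more than any other member. Its mRNA level was 1145, 1326 and 1359 normalised reads in developing libraries, against 255, 191 and 199 in diapause libraries. Its RPF level was 1054, 1118 and 1199 in developing libraries, against 162, 144 and 161 in diapause libraries. These are differences of 5.95-fold in mRNA (log2 2.57 ± 0.15, SE; limma adjusted p = 1.52e-07) and 7.22-fold in RPF level. The next largest changes in the list were 3.04-fold for mRNA and 2.82-fold for RPFs.

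CE40437 was the 1 member whose mRNA did not pass the test. Its mRNA level was 1510, 1262 and 1128 normalised reads in developing libraries, against 1372, 1229 and 1159 in diapause libraries. The libraries of the states were interleaved, with a ratio of means of 1.04 (log2 0.05 ± 0.14, SE; limma adjusted p = 0.802, and 0.46 to 0.971 over 10 alternative settings). Its RPF level was 1105, 1268 and 1233 in developing libraries, against 915, 950 and 936 in diapause libraries. RPF libraries of the states did not overlap, at 1.29-fold.

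CE17253 and CE34396 were at the high and the low end of the list by signal in both assays, averaged over the states (1407 and 362 normalised reads in mRNA data, 1403 and 503 in RPF data). These sums are not per length, so the order is one of reads and not of transcripts. CE17253 mRNA measured 1916, 1467 and 1510 in developing libraries, against 1251, 1250 and 1045 in diapause libraries. Its spread was wide, and its rise of 1.38-fold had a limma adjusted p of 0.0166. CE17253 RPFs were tighter, at 1787, 1849 and 1784 in developing libraries, against 1012, 1039 and 946 in diapause libraries (1.81-fold). CE34396 mRNA measured 453, 513 and 468 in developing libraries, against 190, 267 and 281 in diapause libraries (1.94-fold; limma adjusted p = 0.000399), the widest relative spread of any member within diapause. The remaining members of this class, CE26355, CE19527, CE06608 and CE18135, rose in mRNA abundance by 1.29-, 1.62-, 1.87- and 1.96-fold.

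**Figure D2:**
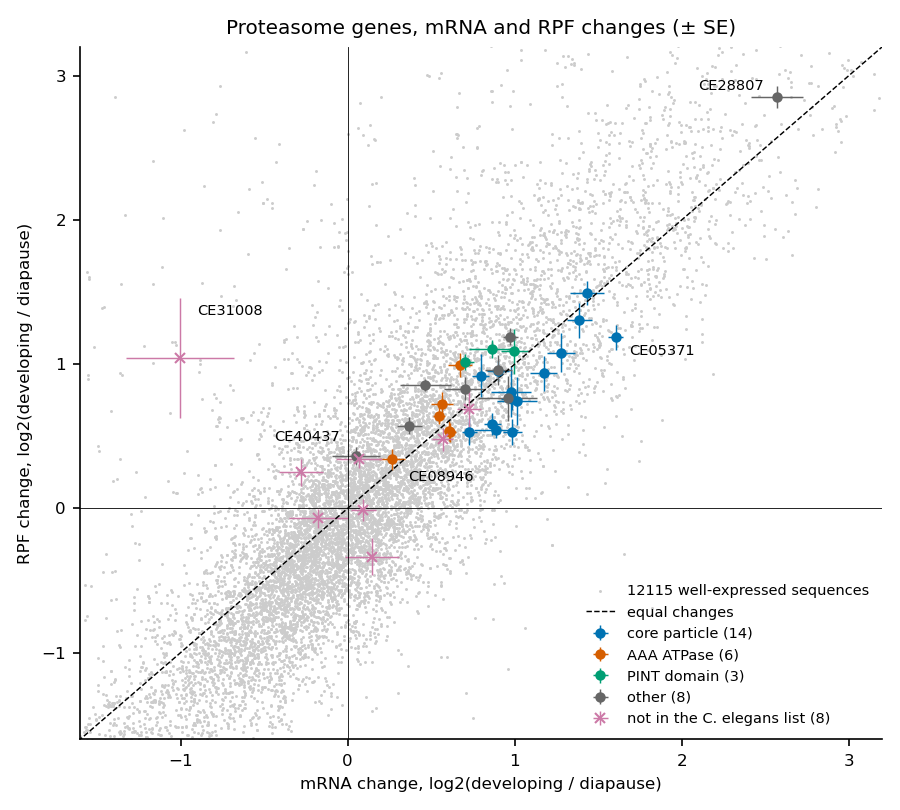
RPF change against mRNA change, both as log2 of developing over diapause, for the 31 listed genes by class (circles, ± SE from the 3 libraries of each group), 8 proteasome identifiers outside the list (crosses) and 12115 well-expressed coding sequences (grey; those beyond the axes are not drawn). The dashed line marks equal changes. Most core particle genes lie below it and most genes of the other classes above it, and CE28807 stands apart at 2.57 and 2.85.

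Across the 31 members, the mRNA change and the RPF change went together. Pearson's r was 0.87 and Spearman's rho 0.64 over the 31 genes. Without CE28807, r was 0.73 and rho 0.60 over 30 genes. These are descriptions across genes of a list chosen on RPF levels; genes are not independent replicates, and both assays come from the same animals.

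The ratio of RPF to mRNA level gives the translation efficiency (TE) of a transcript, and coding length cancels in it. TE of the members hardly differed between states with the authors' size factors. The median change of log2 TE, developing less diapause, was 0.06, and the members ran between -0.46 and 0.39. With these size factors, all 31 members changed by less than 0.5 on the log2 scale in either direction, where 68.8% of well-expressed sequences did. With the column-sum scaling the members' median was -0.24 and they ran between -0.76 and 0.09, so not all stayed within 0.5. Of the 31, 17 had the higher TE in developing animals with the authors' size factors, where 44.8% of well-expressed sequences did, but 4 had it with the column-sum scaling, which lowers every TE change by the same amount. Relative to the median of all well-expressed sequences (-0.06 with the size factors), the members' median was 0.12 higher, a difference that a scaling cannot alter.

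The level of TE was high in both states. Median log2 TE of the members was -0.12 in developing animals and -0.11 in diapause animals, against -0.68 and -0.70 over all well-expressed sequences. CE34396 had the highest TE of the list in both states, at 1.32 in developing and 1.52 in diapause animals (RPF over mRNA). CE30307, a core particle subunit, had the lowest, at 0.53 in developing and 0.673 in diapause animals. TE of CE30307 was thus above that of 38.2% of well-expressed sequences in developing animals and 55.7% in diapause animals, whereas CE34396 was above 96.9% and 97.3%.

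**Figure D3:**
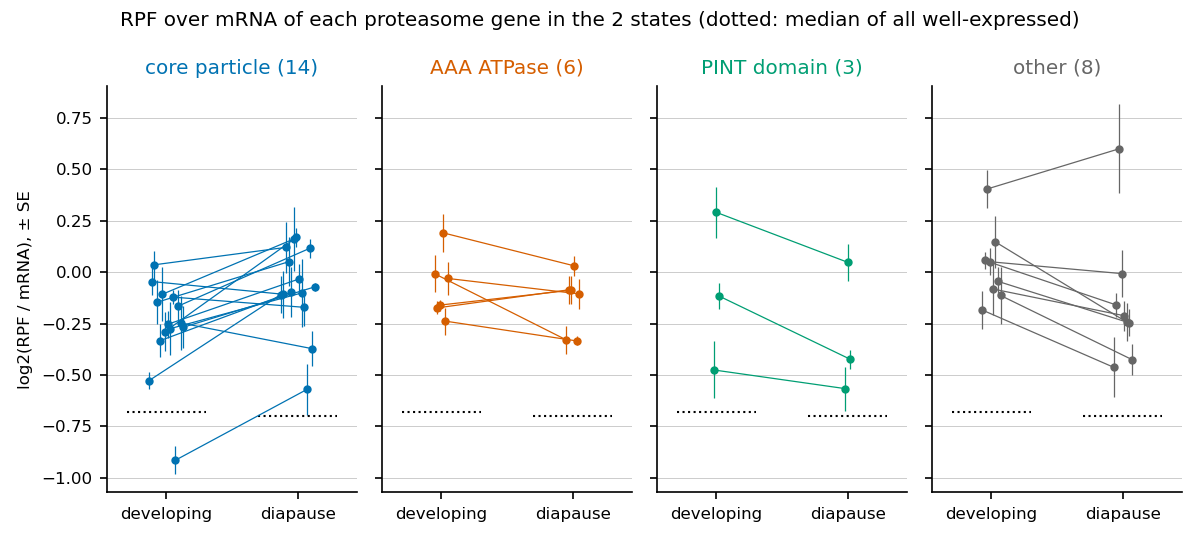
Log2 of RPF over mRNA for each proteasome gene (± SE from the 3 mRNA and 3 RPF libraries of a state), developing on the left and diapause on the right of each panel, with 1 panel per class and a dotted line at the median of all well-expressed sequences. In the core particle 11 of 14 genes are lower in developing than in diapause animals, and in the remaining classes 14 of 17 are higher.

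Within this narrow range the classes lay on different sides of the list's median. For the core particle, the median change of log2 TE was -0.21, and 11 of 14 subunits had the lower TE in developing animals. For the ATPases, the PINT domain members and the other members the medians were 0.09, 0.24 and 0.21, and 14 of these 17 members had the higher TE in developing animals. The signs depend on the scaling: with the column-sum scaling, which shifts all TE changes alike, the medians for the same 4 classes were -0.51, -0.22, -0.06 and -0.09. The core particle had a higher median mRNA change (0.98, against 0.67 for the 17 other members) and nearly the same median RPF change (0.86, against 0.83).

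The difference between the classes was also present in single mRNA libraries. The geometric mean of the 14 core subunits over that of the 17 other members was 1.08, 1.20 and 1.15 in developing mRNA libraries, against 0.867, 0.906 and 0.979 in diapause mRNA libraries. The 3 developing mRNA libraries lay above the 3 diapause mRNA libraries. In RPF data the ratio was 0.928, 0.977 and 1.01 in developing libraries, against 0.968, 1.00 and 0.981 in diapause libraries, and the states overlapped. Set against the ATPases alone, the core particle ratio averaged 1.18 ± 0.06 in developing and 0.815 ± 0.039 in diapause mRNA libraries, and 1.03 ± 0.05 in developing and 0.862 ± 0.029 in diapause RPF libraries (SD, n = 3 each). Subunit lengths enter each of these ratios equally in all libraries, so their level carries no information on stoichiometry. No p-value is given, since the members were chosen on RPF levels.

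Single members show what lies behind these medians. CE20761 had the largest TE difference towards diapause, at 0.818 in developing and 1.12 in diapause animals (log2 change -0.46 ± 0.10, SE). CE05371, CE30307, CE07571 and CE26745, all of the core particle, also had a TE lower in developing animals by more than 2 SE. CE17253, of the other members, had the largest TE difference towards developing animals, at 1.11 in developing and 0.845 in diapause animals (log2 change 0.39 ± 0.16, SE). CE26355, CE18135, the ATPase CE09799 and the PINT domain member CE00101 also had a TE higher in developing animals by more than 2 SE. For the remaining 21 members the TE change was within 2 SE of 0. These SEs treat all libraries as independent, although states and assays share worm populations. With 3 libraries per group, 2 SE serves as a description and not as a test. Of 11576 well-expressed sequences with all library values, 35.1% were beyond 2 SE (15.8% higher and 19.3% lower in developing animals), so the 10 members beyond it are about as many as the general rate gives. With the column-sum scaling, which subtracts 0.30, none of these 5 increases exceeds 0.09.

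The low end of the list can be read beside 8 proteasome identifiers that the study's lists for the other species name and its C. elegans list does not. The members with the smallest RPF changes, CE08946 and CE40437, were at 1.27- and 1.29-fold. CE31311, outside the list, measured 1193, 1361 and 1344 normalised RPF reads in developing libraries, against 1009, 1039 and 1031 in diapause libraries (1.27-fold). CE25011, also outside it, was at 1.19-fold. CE22219, CE02329 and CE31008, outside the list as well, had higher RPF ratios of 1.39-, 1.61- and 2.06-fold, the last close to the floor. The RPF means of CE05284, CE25810 and CE30640 were lower in developing animals. RPF ratios inside and outside the list thus overlapped, and the ratio alone does not give the edge of the list. CE40437 and CE31311 had parallel reads: the ratio of their reads stayed between 0.865 and 0.932 over the 12 libraries. Whether they share a gene is not given in the sources used here, and they may not be independent values. The mRNA of CE31311 did not pass the test either, at 1.05-fold (limma adjusted p = 0.726).

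Of the other identifiers outside the list, CE02329 (PINT domain) and CE22219 rose in mRNA abundance by 1.65- and 1.48-fold, with limma adjusted p-values of 0.000199 and 0.000957. Their RPF levels were 1.61- and 1.39-fold higher. CE05284, CE25810 and CE30640 did not pass the mRNA test, at 0.886-, 1.10- and 1.07-fold, and their RPF levels stood at 0.953-, 0.792- and 0.991-fold. CE25810 RPFs measured 114, 99.5 and 113 normalised reads in developing libraries, against 159, 126 and 127 in diapause libraries, the 1 identifier of the 39 whose RPF libraries were all lower in developing animals.

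For CE25011 and CE31008 the mRNA mean was lower and the RPF mean higher in developing animals. CE25810 and CE30640, given above, had the reverse signs, with mRNA changes that were not called and, for CE30640, ratios near 1 in both assays. CE25011, a PINT domain member, measured 690, 615 and 514 normalised mRNA reads in developing libraries, against 787, 701 and 717 in diapause libraries. It fell in mRNA abundance (0.825-fold; limma adjusted p = 0.0883), a call lost in 6 of 10 alternative settings. CE25011 RPFs measured 1012, 930 and 1133 in developing libraries, against 898, 869 and 818 in diapause libraries (1.19-fold), so that its TE was 1.69 in developing and 1.17 in diapause animals. CE31008 was close to the floor, with 24, 9 and 10 RPF reads in developing libraries and 9, 7 and 8 in diapause libraries before normalisation. Its mRNA fell (0.499-fold; limma adjusted p = 0.024), and without the diapause mRNA library with 110 reads the adjusted p was 0.114. Of the 8 identifiers, 2 rose and 2 fell in mRNA abundance, about the shares of all coding sequences (25.0% and 26.0%), and the median mRNA change was 0.89 for the 31 listed members, against 0.08 for these 8. The 31 were listed on RPF levels, with which mRNA changes go together.

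**Figure D4:**
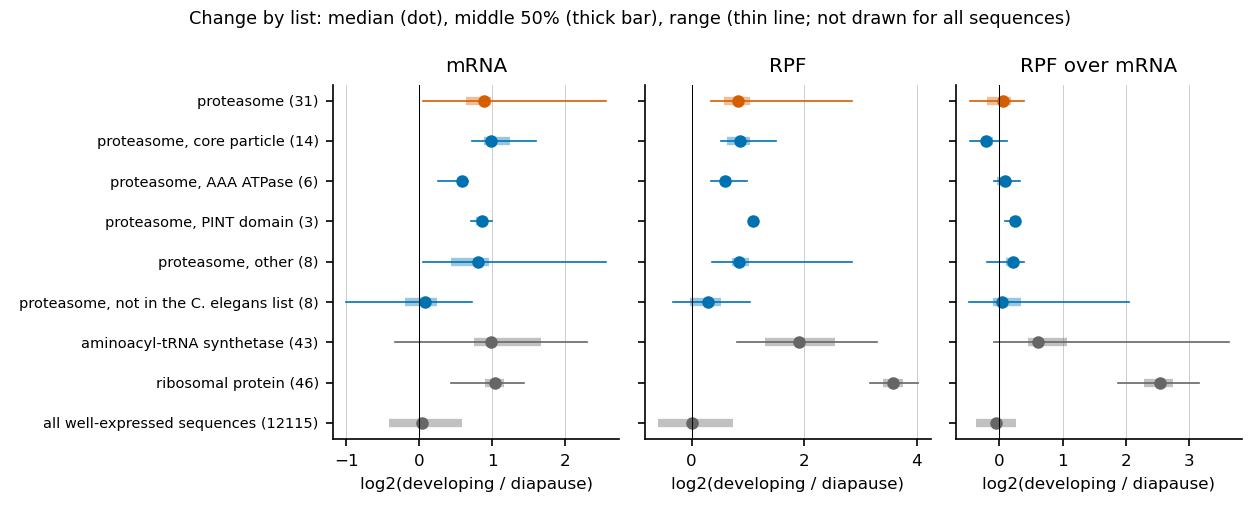
Log2 changes (developing over diapause) in mRNA, RPF and RPF over mRNA for the proteasome list, its 4 classes, the 8 identifiers outside the list, the aminoacyl-tRNA synthetase and ribosomal protein lists and all well-expressed coding sequences, with the median as a dot, the middle 50% as a thick bar and the range as a thin line. The 3 listed groups have mRNA medians of 0.89, 0.99 and 1.05 and RPF medians of 0.83, 1.92 and 3.57.

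Other growth-related lists of the study, likewise chosen on RPF levels of these libraries, had median mRNA changes close to that of the proteasome and larger median RPF changes. The 43 aminoacyl-tRNA synthetase identifiers, which charge tRNAs with amino acids, had a median mRNA change of 0.99 and a median RPF change of 1.92. Their mRNA changes were more widely spread, between -0.33 and 2.30, and 21 were over 2-fold higher, against 7 of the 31 proteasome members. The 46 ribosomal protein genes of the study's list had a median mRNA change of 1.05, with 27 over 2-fold higher. Their median RPF change was 3.57. That list need not hold every ribosomal protein gene of the species, and none of its 46 genes was tested for mRNA. The median TE change was 0.06 for the proteasome, 0.61 for the synthetases and 2.53 for the listed ribosomal proteins. All 46 listed ribosomal protein genes were above the highest proteasome member (1.87 or more, against at most 0.39). Median TE in the same order (RPF over mRNA) was 0.919, 0.927 and 0.625 in developing animals, against 0.929, 0.45 and 0.103 in diapause animals, so the lists lay further apart in diapause. The gene ubq-2, which encodes ubiquitin fused to a ribosomal protein, averaged 34102 normalised mRNA reads in developing and 15051 in diapause animals by the authors' means (2.27-fold). Its RPF means were 22758 in developing and 2433 in diapause animals (9.35-fold). The TE change of ubq-2, 2.05, lay within the range of the listed ribosomal protein genes and beyond that of every proteasome member.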

How the data were processed

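C. elegans mRNA-seq and RPF tables of the series were used, with samples grouped by the species, state and assay in their labels. Per the labels and the study's methods, the authors trimmed reads, mapped them with Bowtie 0.12.7 to the genome and to coding sequences with short flanks, discarded those that mapped to several places in the genome, and summed the rest per coding sequence, keeping all best alignments to coding sequences. The signal columns the authors deposited are DESeq means of reads over size factors per state, under letters only. The letter of each state was read from the study's lists. In the RPF data, all C. elegans identifiers found and listed as higher in developing animals had the larger mean under B. All those listed as higher in diapause had it under A. In the mRNA data, the study's list of strongly discordant genes was used. All its identifiers with increased mRNA had the larger mean under B, and all with decreased mRNA under A. The authors also deposited, for each state, the ratio of the variance seen among its libraries to the variance their model fitted, which was used here only for a check. The tables also hold the authors' fold changes and p-values, which were not used.

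Each mean is a sum of 3 whole read numbers times 3 fixed steps. The steps were found from the lowest means, and every mean up to 5000 then had exactly 1 solution. As a check, the fitted variance that the deposited ratio and these reads imply lay within 0.01 log2 of a smooth function of the mean for 99.3% to 99.4% of coding sequences checked. Means above 5000 (158 to 396 per group) were left unresolved and untested. Libraries are in order of size factor and cannot be tied to a batch. P-values measure the spread between 3 libraries per state.

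The main test, for mRNA only, was limma 3.58.1 (R 4.3.3; trend, empirical Bayes, two-sided) on log2(normalised reads + 1) of coding sequences with a mean of at least 1, with Benjamini-Hochberg adjustment over all 20917 and a threshold of 0.1. It was tested on simulated data. The simulated libraries shared no worm batches, so that check does not give the error rate of the test here. Changes are log2 ratios of the authors' means, with standard errors from the library values. These are not the moderated standard errors behind the limma p-values. For the mRNA change of CE05371 limma's was 0.097, against 0.046 here, and for CE28807 0.133, against 0.155. TE is RPF over mRNA, as a ratio of means. Alternatives were another pseudocount, no filter, each library left out, other scalings, other list versions and voom weights.

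The members and lists were chosen with earlier results of these data known. All 31 members are covered. Those in full sentences are the highest and lowest by each measure, overall and by class, the identifiers outside the list, and ubq-2. The remaining genes with values were named after seeing them.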

Additional observations from a re-analysis of the deposited data

How the results depend on the processing

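With each state scaled to the sum of its column, the members' median change was 0.39 for RPF, 0.75 for mRNA and -0.24 for RPF over mRNA, against 0.83, 0.89 and 0.06 with the authors' size factors; a scaling adds 1 constant to all changes of an assay. Adding the 8 identifiers outside the list gave a median mRNA change of 0.73. Leaving out 1 library at a time gave medians of 0.80 to 0.88 for RPF, 0.85 to 0.94 for mRNA and -0.01 to 0.11 for RPF over mRNA, where the negative value came without diapause mRNA library 3 (libraries numbered from the largest size factor), and 29 to 30 members that rose in mRNA abundance, against 30 of 31. The call that was lost was that of CE08946. With the column-sum scaling 29 rose, and with voom weights, no filter or a pseudocount of 0.5, 30. With the column-sum scaling the mRNA change was -0.093 for CE40437 and, outside the list, -0.049 for CE30640 and -0.078 for CE31311, none of which was called in any setting. With 1 library left out it ran from -0.068 (without developing library 1) to 0.14 (without developing library 3) for CE40437 and from -0.048 to 0.15, without the same libraries, for CE31311. The voom weights, the column-sum test, the lists without CE28807 or CE29280 and all leave-one-out values of the 3 medians were chosen after seeing the data. A count test with edgeR was planned and not run. No paired analysis was possible because the recovered library values carry no replicate number. With 3 libraries per state, small changes such as that of CE08946 are at the limit of what the data resolve.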
